A study of Mus musculus with 4 samples.

Results

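Open chromatin was described around 10 immediate-early genes outside the AP-1 family, in mouse bone mesenchymal stem cells (MSCs) cultured at low or at atmospheric oxygen. The genes were Egr1, Egr2, Egr3, Ier2, Ier3, Atf3, Klf4, Klf6, Dusp1 and Nr4a1. They were selected on the difference between normoxia and hypoxia in earlier results from the same libraries, so their differences between the groups are given as a description and were not used as a test. Every peak of the table that overlapped a gene, the 10 kb before it or the 10 kb past its end was taken, with gene spans from GENCODE M21. This gave 82 of the 128055 peaks, which covered 238 kb.

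Immediate-early genes are transcribed within minutes of a stimulus, without the need for new protein synthesis. Kinase cascades act through serum response factor with its ETS-family partners and through CREB-family factors on promoters that are already open before the stimulus. The products are mostly transcription factors and feedback inhibitors, and in stromal cells they respond to serum, mechanical load, stress and handling of the cells.

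The stretches shown here lie directly before the start sites of the genes whose start-site peak was strongest per kb and that had an entry in the RefSeq promoter table, and around the match to the serum response element, the CArG box, of Egr2. They were read from the RefSeq promoter table (GRCm38.p6, the build of mm10) and stop before the first base of any annotated exon, except for the Egr2 site, which lies within a first exon of a RefSeq transcript model. Capitals mark matches to any motif searched.
Dusp1, chr17:26508520-26508669, minus strand: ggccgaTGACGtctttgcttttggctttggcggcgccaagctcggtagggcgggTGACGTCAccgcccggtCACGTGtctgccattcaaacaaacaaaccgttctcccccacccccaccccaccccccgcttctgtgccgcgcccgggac
Klf4, chr4:55532476-55532625, minus strand: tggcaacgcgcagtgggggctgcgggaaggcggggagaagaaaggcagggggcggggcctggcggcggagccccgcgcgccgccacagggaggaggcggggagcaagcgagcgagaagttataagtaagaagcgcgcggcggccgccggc
Klf6, chr13:5861332-5861481, plus strand: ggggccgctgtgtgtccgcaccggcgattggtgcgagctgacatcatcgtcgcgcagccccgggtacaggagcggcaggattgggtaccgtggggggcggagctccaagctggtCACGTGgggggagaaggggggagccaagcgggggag
Egr2, chr10:67537787-67537816, plus strand: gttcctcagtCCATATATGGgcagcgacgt

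The motifs were searched on both strands in the 250 bases before each RefSeq start site, in 11 windows of 7 of the genes, because Egr1, Egr3 and Ier2 had no entry. The CArG box was found in Egr2 and in none of the other 6 genes with an entry, 72 to 63 bases before the start at position 67537869. Egr2 held a second match, CCTTTTTTGG, before its start at position 67537566, and 1.47% of all 32851 promoter windows held a CArG match. The full cyclic AMP response element, TGACGTCA, was found in Dusp1, 143 to 136 bases before its RefSeq start, and in 1.55% of all windows. Its core, TGACG, which lies within the full element, occurred in Atf3, Dusp1, Egr2, Klf4 and Nr4a1 and in 17.8% of all windows. ETS matches (CCGGAA) lay before Egr2 and Nr4a1 and in 12.0% of all windows. Matches to the EGR factors' own motif (GCGTGGGCG or GCGGGGGCG) lay before Klf4 and Nr4a1 and in 3.06% of all windows. The core of the hypoxia response element (ACGTG) lay before Dusp1, Egr2, Ier3, Klf4 and Klf6 and in 16.6% of all windows. It overlaps itself in the palindrome shown in Dusp1 and Klf6. The AP-1 motif (TGANTCA) was in 0 of the 11 windows and in 6.75% of all windows. In Klf4 all matches lay further from the start than the stretch shown. A match is a description of the letters and does not show that a factor was bound.

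The comparison addressed whether MSC chromatin differs after culture at low and at atmospheric oxygen. The cells came from male C57BL/6N mice of 3 to 5 months, grew out of bone at 2% O2 and were sorted as CD45-, Ter119-, Sca-1+ and CD140a+. They were then kept at 2% O2 (hypoxia, 2 libraries) or shifted to 21% O2 for a week (normoxia, 2 libraries), both with 5% CO2 and without any other agent or genetic change. The labels call the cells bone-marrow MSCs and put the sort on day 12 of culture. ATAC-seq marks accessible DNA, because the Tn5 transposase cuts it and adds adapters where it is open. The study describes the libraries of a group as separate biological experiments. It also describes splitting the sorted cells between the oxygen levels, and the labels do not say which libraries shared a preparation. With 2 against 2 libraries an exact permutation test cannot go below a two-sided p of 0.333. Hypoxia was also the condition in which the cells were expanded, so the oxygen level and the shift itself cannot be told apart.

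The deposited signal of a peak is its number of reads per 10000000 reads of the library, not divided by peak width. Library totals were 26680936 to 29965523 reads, and the median peak held 33 to 48 reads. Nuclear peaks held 49.2% and 53.2% of the library total in hypoxia and 31.0% and 35.2% in normoxia, and mitochondrial peaks 7.77% and 9.13% against 1.497% and 2.34%. This difference acts on every peak before scaling, and its part in the results was not tested. Of the 10 MSC marker genes, 9 had a promoter peak (all but Lepr), Pdgfra and Ly6a (the genes of CD140a and Sca-1) among them. Of the blood genes, Ptprc, the gene of CD45, and also Cd79a, Cd3e, Itgam, Hbb-bt and Vav1 had no promoter peak. The promoter peak of Spi1, a myeloid factor, was weak, at 14.9 and 10.2 in hypoxia against 7.87 and 13.0 in normoxia. For 3 of the 5 endothelial genes the summed promoter signal was 92.7 and 96.6 against 58.5 and 75.4, and Cdh5 and Emcn had no promoter peak.

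All 10 genes had a strong peak over the start of their main transcript, and in each of them the normoxia libraries were both lower than either hypoxia library on the deposited scale. All 10 peaks lay in the top decile of all peaks by mean signal. The same order of the libraries held in 7065 of all 7094 promoter peaks of that decile. It held in 15205 of all 17670 promoter peaks, so it is not particular to these genes. At the 10 start-site peaks the normoxia mean was between 0.512 (Egr1) and 0.699 (Nr4a1) of the hypoxia mean. Levels between genes were compared per kb of peak. In hypoxia the Egr1 peak was the strongest, at a signal of 97.6 and 96.5 per kb. Ier2, Dusp1, Klf4, Egr3 and Klf6 followed with means from 70.6 to 58.2, and each of these overlapped its next neighbour in that order. Atf3 (38.2 and 38.0), Egr2 (31.5 and 37.2), Ier3 (33.4 and 32.9) and Nr4a1 (30.0 and 30.6) came last, and of these Egr2 and Ier3 overlapped. In normoxia Egr1 was again first, at 47.9 and 51.4, and Ier2 second, at 36.8 and 39.8. Egr3, Klf4, Dusp1 and Klf6 then stood between means of 36.0 and 32.7, and Nr4a1, Egr2, Ier3 and Atf3 between means of 21.2 and 19.6, each overlapping its next neighbour within these sets.

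**Figure D1:**
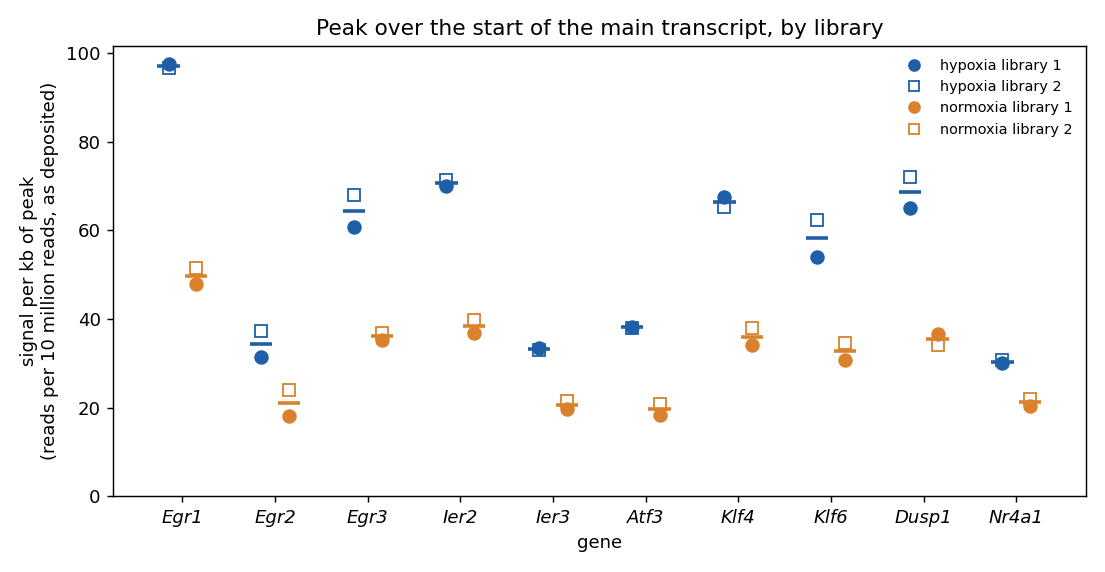
Deposited signal per kb (reads per 10000000 reads of the library, vertical axis) of the peak over the main start of each gene (horizontal axis). Each symbol is a library (blue, hypoxia; orange, normoxia; filled circle, library 1; open square, library 2) and each line a group mean; at all 10 genes the orange symbols lie below the blue ones.

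To take out the overall difference in signal, the libraries were then scaled with relative log expression (RLE) factors, and log2(signal + 1) was fitted with limma over all peaks. Fold changes are normoxia over hypoxia on this scaled log2 scale. A peak is called lower or higher at a false discovery rate (FDR) under 0.01 over all 128055 peaks. Of the 82 peaks, 17 were called lower and 0 higher, and at an unadjusted p under 0.05 these numbers were 43 and 0. Over all peaks 4.57% were called lower and 1.77% higher, and over all promoter peaks 16.7% and 0.441%. At the unadjusted p, 21576 of all 128055 peaks were lower and 16025 higher. For the 17670 promoter peaks these numbers were 7794 and 686. Promoter peaks are those that reach within 1 kb of where a protein-coding transcript starts. The called peaks lay at Egr1 (3), Ier2 (2), Atf3 (5), Klf6 (2), Dusp1 (3) and Nr4a1 (2), and none lay at Egr2, Egr3, Ier3 or Klf4. The lower and higher calls were 48 and 0 without scaling, 8 and 1 with equal totals over peaks, 10 and 2 with quantile and 11 and 2 with cyclic loess scaling. Without hypoxia library 1 or without hypoxia library 2 there were 0 calls, here and over all peaks.

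By position, 6 of the 16 promoter peaks, 1 of the 19 gene-body peaks, 2 of the 10 upstream peaks and 8 of the 37 downstream peaks were called lower. Over all promoter peaks 16.7% were called lower and 0.441% higher, and over all other peaks 2.64% and 1.98%. The median log2 fold change was -0.38 in promoter peaks, -0.27 in gene bodies, -0.17 upstream and -0.96 downstream. Beside these, it was -0.00 over all peaks, -0.27 over all promoter peaks and 0.05 over all other peaks. The promoter peaks of the 10 genes were strong, with 12 of the 16 in the top decile of all peaks by mean signal. Within that decile, the median was -0.35 in these 12 peaks and -0.37 in all 7094 promoter peaks, with 41.7% and 34.4% called lower. Closest to the threshold were an Atf3 upstream peak (limma FDR 0.00493) on one side and a hypoxia-only peak downstream of Atf3 (chr1:191164301-191165000, FDR 0.01001) on the other, followed by the start-site peak of Egr3 (FDR 0.0150). The downstream peak overlaps an exon of Fam71a and lies within 1 kb of its start, so its signal cannot be given to either gene. It lies outside the rule for named peaks and was picked after its values were seen.

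**Figure D2:**
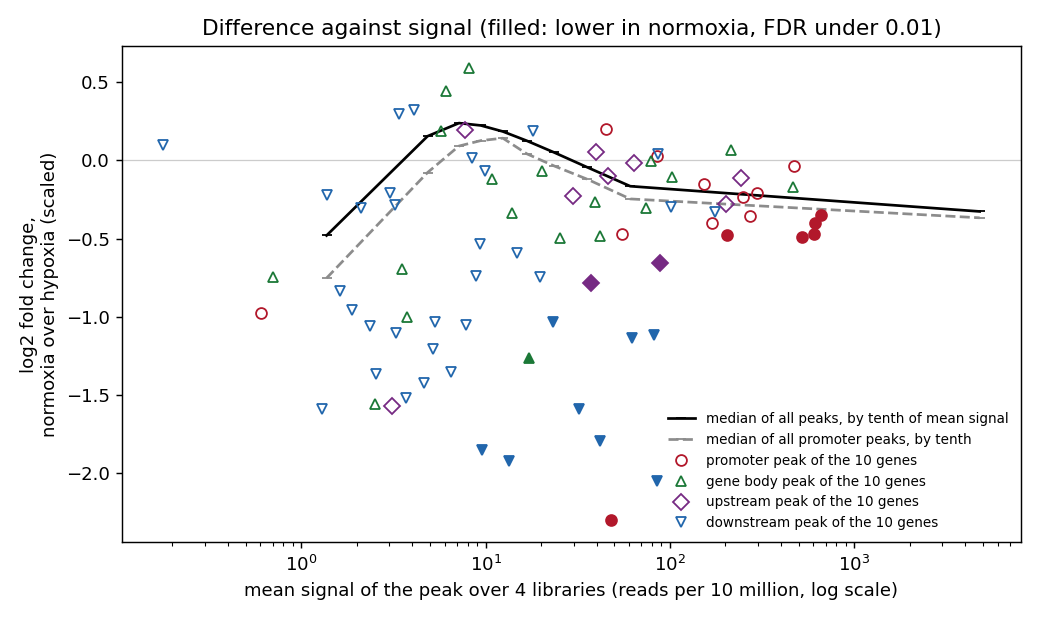
Log2 fold change, normoxia over hypoxia after RLE scaling (vertical axis), against the mean deposited signal of the peak (horizontal axis, log scale) for the 82 peaks by position, with the medians of all peaks and of all promoter peaks in deciles of mean signal as lines. Filled symbols are called lower; promoter peaks of strong signal lie near the lines, while the called downstream peaks lie between -1.03 and -2.05, below them.

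The peak caller had assigned each peak to both conditions or to one of them. It gave 26 of the 82 peaks (31.7%) to hypoxia only and 0 to normoxia only, where 6.84% of all peaks were hypoxia only. These 26 peaks lay at 8 of the genes, 18 of them downstream, and their median width was 500 bp. The assignment comes from the same signal as the fold change, so the low values of these peaks restate it. Their median log2 fold change was -1.31, against -1.05 over all 8754 hypoxia-only peaks, and 8 of them (30.8%) were called lower, against 8.24% of all hypoxia-only peaks. Many held few reads, with 15 of the 26 under a mean signal of 5. The 56 shared peaks had a median of -0.23, against 0.03 over all shared peaks, with 9 (16.1%) called lower, against 4.31% of all shared peaks. These sets differ in strength. The median signal was 45.7 in the 56 against 15.8 in all shared peaks, and 3.74 in the 26 against 1.82 in all hypoxia-only peaks. Of the 56, 21 were in the top decile by mean signal, where 28.4% of all peaks were called lower. With the 1 hypoxia-only peak of that decile, 7 of 22 peaks of the genes there (31.8%) were called lower. Shares at equal signal were not computed for the weaker peaks or for each set alone. In 2 of the hypoxia-only peaks both normoxia libraries were at 0. With a floor of 3 reads per normoxia library in those peaks, the medians became -1.23 in hypoxia-only, -0.84 in downstream and -0.35 in promoter peaks.

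Peaks of different assignment often touched, so that each start site lay in a run of adjoining peaks of 9.0 kb (Egr2) to 27.0 kb (Nr4a1). Together the 10 runs held 56 of the 82 peaks and 24 of the 26 hypoxia-only peaks. Every run reached past the end of the main transcript, by 1.61 kb at Egr2 and by up to 11.9 kb at Egr3. The start-site peak alone had a median width of 10050 bp, against 2200 bp for all promoter peaks. Hypoxia-only peaks made up 27.0% of the run at Atf3 and 22.8% at Egr1, and none of the runs at Egr2 and Ier3.

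**Figure D3:**
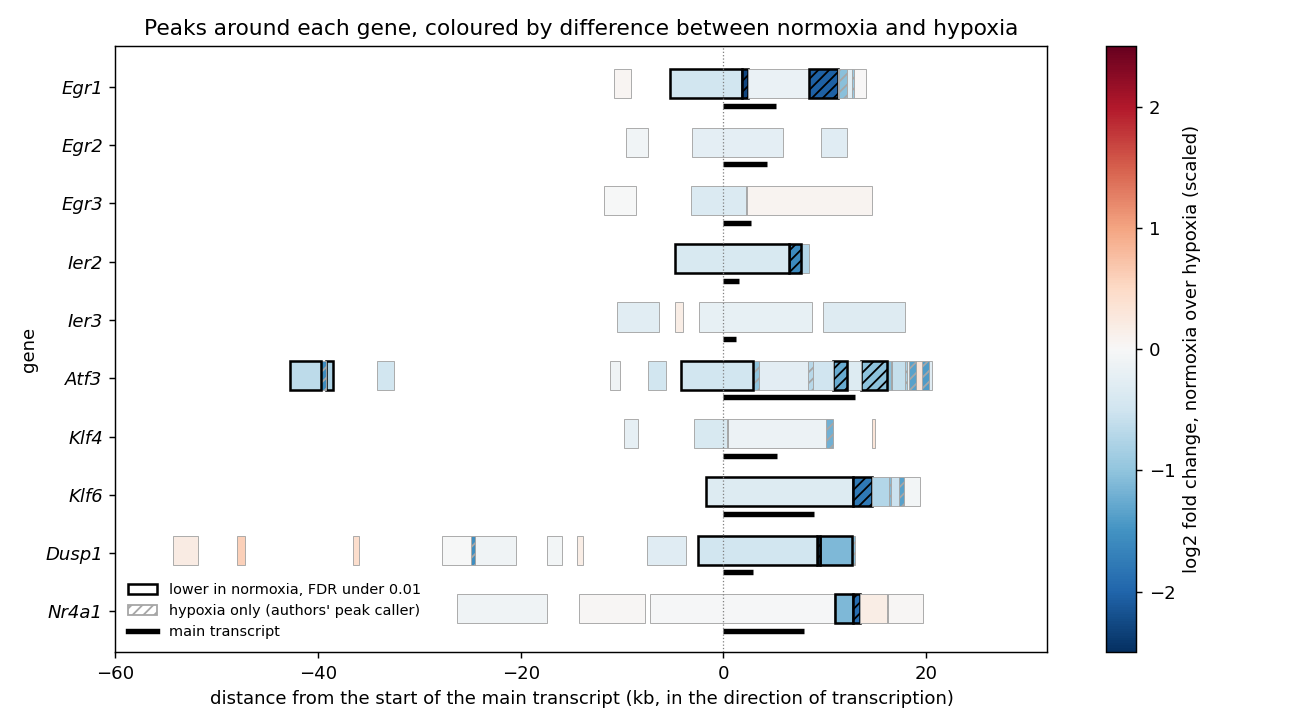
Position of the 82 peaks by gene (vertical axis) and distance from the start of the main transcript in kb, in the direction of transcription (horizontal axis). Colour gives the log2 fold change, normoxia over hypoxia after RLE scaling; thick black outlines are peaks called lower, hatching marks hypoxia-only peaks and black bars are main transcripts; the 6 lowest values lie past the transcript ends of Egr1, Ier2, Klf6, Dusp1 and Nr4a1 and inside Egr1.

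Egr1, Egr2 and Egr3 encode zinc-finger transcription factors that bind the same GC-rich motif, and Egr1 is a textbook target of serum response factor. The Egr1 start-site peak (chr18:34854601-34861700) held a signal of 693 and 685 in hypoxia against 340 and 365 in normoxia. Its log2 fold change after scaling was -0.49 (SE 0.09), and it was called lower, although its sign turned with cyclic loess scaling (0.02). Directly downstream of it, inside the gene, a hypoxia-only peak of 600 bp (chr18:34861701-34862300) held 89.2 and 79.9 against 13.1 and 10.3. Its log2 fold change of -2.30 (SE 0.19) was the lowest of the 82. The groups were apart in both peaks, but the short inner peak was lower by a much greater factor than the start-site peak beside it.

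The rest of the Egr1 run repeated this alternation. The gene-body peak from 2.48 to 8.48 kb after the start held 537 and 600 in hypoxia against 368 and 355 in normoxia, and its log2 fold change of -0.17 was not called and turned positive with equal totals (0.12), quantile (0.19) and cyclic loess scaling (0.32). Beyond it, from 8.48 to 11.3 kb, a hypoxia-only peak past the end of the gene held 136 and 157 against 24.0 and 25.4. It was called lower, with a log2 fold change of -2.05 (SE 0.15). The groups did not overlap in any of these 4 peaks, and the difference was several times larger in the 2 hypoxia-only peaks than in the start-site and body peaks. The assignment to hypoxia only comes from the same signal, so this contrast restates it.

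At Egr2, which also directs Schwann cell myelination, 3 peaks were found and none was called. The start-site peak (chr10:67534801-67543800), which holds the CArG match shown above, had 283 and 335 in hypoxia against 163 and 216 in normoxia, a log2 fold change of -0.24 (SE 0.11) that was positive with equal totals (0.05), quantile (0.13) and cyclic loess scaling (0.16). The strongest other peak (chr10:67547501-67550100) overlaps an exon of Ado and lies within 1 kb of its start, so its signal cannot be given to either gene. It held 126 and 131 against 67.1 and 83.4.

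Egr3 had a start-site peak (chr14:70074001-70079400) with 328 and 368 in hypoxia against 191 and 199 in normoxia. Its log2 fold change of -0.36 (SE 0.10) was just short of the threshold, and it was positive with quantile (0.02) and cyclic loess scaling (0.06). The wide peak that follows it, 2.30 to 14.7 kb after the start, held 245 and 245 against 172 and 197. After scaling the groups overlapped there, with a log2 fold change of 0.07 (SE 0.11). With equal totals, quantile and cyclic loess scaling this peak was called higher, and on the deposited scale its log2 fold change was -0.41. Of the sequence that follows the start, Egr1 had a 600-bp piece assigned to hypoxia only where Egr3 had 100 bp of this kind.

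Klf4 and Klf6 encode Krüppel-like zinc-finger factors. Klf4 is known from pluripotent cells and epithelial differentiation, and Klf6 from wound healing and stress. The Klf4 start-site peak (chr4:55532101-55535400), over the stretch shown above, held 223 and 215 in hypoxia against 112 and 125 in normoxia. At a log2 fold change of -0.40 (SE 0.11) and a limma FDR of 0.0156 it was not called. A second peak over the gene, from 0.47 to 10.2 kb after the start, held 165 and 205 against 121 and 118, with a log2 fold change of -0.15 that was positive with equal totals (0.14), quantile (0.18) and cyclic loess scaling (0.17). Between them lay 100 bp assigned to hypoxia only, at 0.708 and 1.70 against 0 and 0, too few reads for a fold. The strongest upstream peak, from -9.83 to -8.43 kb of the start, held 35.7 and 37.7 against 25.1 and 20.02.

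The Klf6 start-site peak (chr13:5859801-5874300), which covers the whole gene, held 784 and 903 in hypoxia against 447 and 501 in normoxia. It was called lower, with a log2 fold change of -0.35 (SE 0.08), but had the opposite sign with cyclic loess scaling (0.19). The adjoining hypoxia-only peak past the gene end (chr13:5874301-5876200) held 64.4 and 74.5 against 16.1 and 11.7 and was called lower, at -1.79 (SE 0.20). As at Egr1, the step from a moderate to a large difference fell at the border that the caller had drawn. That border comes from the same signal, so the step restates the assignment.

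Atf3 encodes a stress-induced bZIP repressor of the ATF and CREB group and had the most peaks, 23, since its annotated span is widened by a transcript that starts 34 kb before the main one. Its start-site peak (chr1:191180401-191187500) held 271 and 270 in hypoxia against 131 and 148 in normoxia. The log2 fold change was -0.48 (SE 0.11), called lower, and it was negative under every scaling tried. The distal start-site peak (chr1:191215801-191217500) held 72.2 and 72.8 against 36.0 and 38.7, and it was not called, at -0.47 on the log2 scale (SE 0.15) and a limma FDR of 0.0353.

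The other 4 called peaks of Atf3 lay upstream of the distal start, inside the main transcript and past its end. Beyond the distal start, chr1:191223001-191226100 held 125 and 118 in hypoxia against 52.8 and 57.4 in normoxia (log2 fold change -0.66, SE 0.14). Its neighbour chr1:191221901-191222600 held 42.1 and 64.3 against 21.0 and 21.7 (-0.78, SE 0.19). These 2 were the only called upstream peaks at any of the 10 genes. Near the 3′ end of the main transcript, the hypoxia-only peaks chr1:191171101-191172500 and chr1:191167201-191169700 were lower by log2 fold changes of -1.26 and -1.03, with SE of 0.27 and 0.22. The first, which overlaps an Atf3 exon, held 21.6 and 31.96 against 8.995 and 6.01, and the second 36.4 and 32.6 against 12.4 and 11.0. At Atf3 22 of the 23 peaks had a negative log2 fold change, and the summed signal of the gene's peaks in normoxia was 0.477 of that in hypoxia, the lowest ratio of the 10 genes. The count and the sum include the downstream peaks between chr1:191162701 and chr1:191166700. Each of these overlaps an exon of Fam71a or lies within 1 kb of its start, so their signal cannot be given to either gene.

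Nr4a1 encodes an orphan nuclear receptor, also called Nur77, and stood at the other end. Its summed deposited signal in normoxia was 0.655 of that in hypoxia, the highest ratio of the 10, and 0.912 after scaling. The start-site peak (chr15:101259601-101277800) held 545 and 558 in hypoxia against 370 and 401 in normoxia. After scaling the groups overlapped there, with a log2 fold change of -0.04 (SE 0.09), and the sign turned with equal totals (0.25), quantile (0.33) and cyclic loess scaling (0.46), the latter pair calling it higher. The peak over the upstream start (chr15:101252601-101259100) held 104 and 91.1 against 59.2 and 85.8, a log2 fold change of 0.03 that was -0.45 on the deposited scale. The strongest peak away from a start, from -26.2 to -17.4 kb of the main one, held 279 and 303 against 190 and 195, a log2 fold change of -0.11 that turned positive with equal totals (0.17), quantile (0.26) and cyclic loess scaling (0.28).

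Past its end Nr4a1 nevertheless had 2 called peaks. A shared peak from 11.1 to 12.8 kb after the start (chr15:101277901-101279600) held 90.9 and 97.6 in hypoxia against 30.4 and 30.4 in normoxia, a log2 fold change of -1.13 (SE 0.15). The hypoxia-only peak that adjoins it held 27.2 and 18.7 against 2.62 and 5.01, at -1.92 (SE 0.31). Further on, from 16.3 kb after the start, a shared peak (chr15:101283101-101286600) had a log2 fold change of 0.04 and overlapping groups. It overlaps an exon of Atg101 and lies within 1 kb of its start, so its signal cannot be given to either gene. This last peak lies outside the rule for named peaks and was picked after its values were seen.

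Ier2 and Ier3 encode short early-response proteins, of which Ier3 is known for effects on cell survival. The Ier2 start-site peak (chr8:84656401-84667600) covers the whole gene and held 783 and 798 in hypoxia against 413 and 446 in normoxia. Its log2 fold change was -0.40 (SE 0.08), called lower, with the opposite sign under cyclic loess scaling (0.13). The hypoxia-only peak downstream of it (chr8:84655201-84656400) held 55.2 and 49.0 against 9.74 and 14.3 and was called lower, at -1.59 (SE 0.21).

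Ier3 had no called and no hypoxia-only peak. Its start-site peak (chr17:35819301-35830400) also covers the start of Flot1, so that its signal cannot be given to either gene, and held 371 and 365 in hypoxia against 218 and 240 in normoxia. Its log2 fold change of -0.21 (SE 0.10) was positive with equal totals (0.08), quantile (0.16) and cyclic loess scaling (0.22). The strongest upstream peak, from -10.5 to -6.38 kb of the start, held 243 and 263 against 136 and 164, a log2 fold change of -0.28 that turned positive under the same 3 scalings (0.01, 0.07 and 0.08).

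Dusp1 encodes a dual-specificity phosphatase that switches off MAP kinases, a feedback inhibitor of the pathways that induce these genes. The start-site peak (chr17:26499301-26511000), which holds the cyclic AMP response element shown above, had 761.5 and 842 in hypoxia against 429 and 400 in normoxia. It was called lower, with a log2 fold change of -0.47 (SE 0.09), but was at 0.06 with cyclic loess scaling. The adjoining 300 bp assigned to hypoxia only held 14.2 and 18.7 against 3.37 and 2.00, and the shared peak after them (chr17:26495801-26499000) 122 and 126 against 46.1 and 35.7. Both lay 9 to 13 kb after the start and were called lower, at -1.85 (SE 0.34) and -1.11 (SE 0.15).

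The annotated span of Dusp1 reaches 54 kb upstream, because of a long transcript model whose start lies in the promoter of Ergic1. The peak there (chr17:26560401-26562800) held 52.7 and 45.9 in hypoxia against 41.2 and 40.05 in normoxia, and its log2 fold change was 0.20 after scaling and -0.27 on the deposited scale, not called on the first. In between lay 8 body peaks, of which the strongest (chr17:26529001-26533000) held 119 and 129 against 85.1 and 79.4, with a log2 fold change of -0.11 that turned positive with equal totals (0.18), quantile (0.16) and cyclic loess scaling (0.15). The 2 peaks among the 82 in which the normoxia libraries both exceeded the hypoxia libraries after scaling were weak peaks of this stretch, at 0.44 and 0.59, and neither was called. By comparison, 27.4% of all peaks lay above in this way. The count below was 52 of the 82 after scaling, beside 29.6% of all peaks, and 71 as deposited, beside 59.5%.

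A total of 8 of the 17 called peaks were called lower under all 6 scalings (RLE, as deposited, equal totals, quantile, cyclic loess and GC correction). They were the inner and the downstream hypoxia-only peaks of Egr1, the downstream hypoxia-only peaks of Ier2 and Klf6, and a hypoxia-only peak with its shared neighbour downstream of both Dusp1 and Nr4a1. No start-site peak was among them. In these 8 peaks the log2 fold change stayed at -0.83 or lower under every scaling. Of the 8, 6 were hypoxia-only peaks, which the peak caller had assigned from the same signal. The share of all peaks called lower under all 6 scalings was not computed, so the count is a description.

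The share of a gene's peak signal that lay in its promoter peaks does not depend on the factor by which a library is scaled. Both normoxia libraries were above both hypoxia libraries in this share at Ier2 (96.7% and 95.6% against 92.3% and 92.6%), Atf3, Klf6 (91.6% and 92.3% against 86.8% and 86.3%) and Nr4a1 (58.4% and 59.8% against 55.5% and 54.3%). Both were below at Egr1 (44.4% and 46.5% against 51.4% and 47.4%), Egr3 (45.6% and 44.5% against 50.7% and 53.3%) and Dusp1. At Egr2, Ier3 and Klf4 the groups overlapped. The median difference between the group means was 0.780 percentage points, within a range of -6.97 (Egr3) to 5.41 (Klf6), so no common direction was seen. No test was made of these shares. How often the groups lie apart in this way over all genes was not computed, so the counts of genes are a description.

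**Figure D4:**
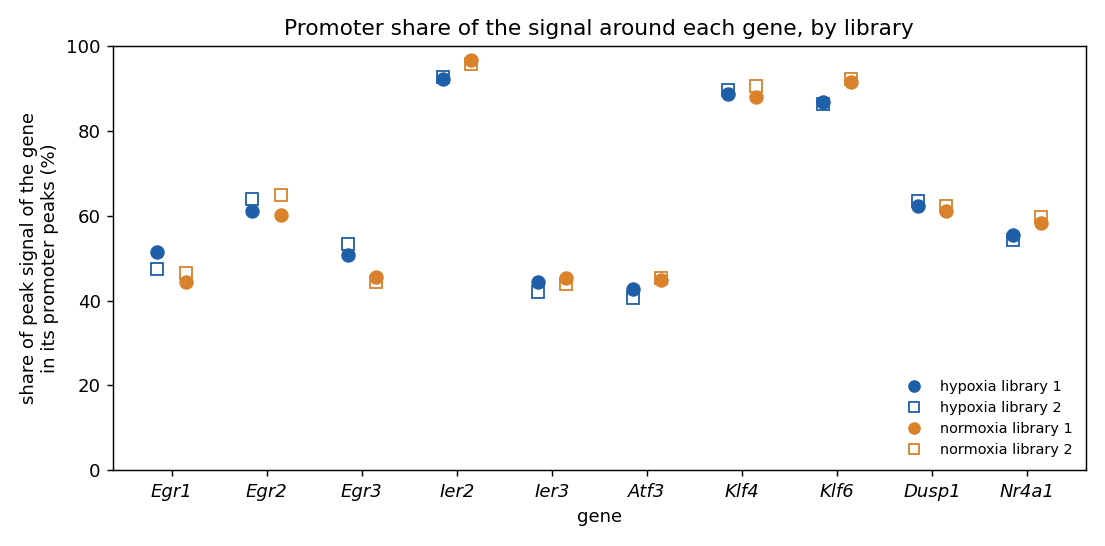
Share of the summed peak signal of each gene that lies in its promoter peaks (percent, vertical axis) by gene (horizontal axis) and library (blue, hypoxia; orange, normoxia; filled circle, library 1; open square, library 2). Normoxia lay above hypoxia at Ier2, Atf3, Klf6 and Nr4a1, below it at Egr1, Egr3 and Dusp1, and the libraries overlapped at Egr2, Ier3 and Klf4.

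The promoter peaks of other early-response genes were set beside these. Among 48 further immediate-early genes, all had a promoter peak, and 22 of their 55 promoter peaks were called lower and 0 higher by limma (37 and 2 at an unadjusted p under 0.05), with a median log2 fold change of -0.33. Of all 7094 promoter peaks in the top decile by signal, 5167 were lower and 36 higher at the unadjusted p. Of the 55 peaks here, 40% were called lower, beside 16.7% of all promoter peaks and 34.4% of those in the top decile, which held 45 of the 55. Among those with a mean signal of at least 10, the lowest were Klf2, a Krüppel-like factor (911 and 922 in hypoxia, 314 and 385 in normoxia, log2 fold change -0.92), and both promoter peaks of Nr4a2, a relative of Nr4a1 (-0.82 and -0.79). The highest were Egr4 (0.36), Dusp2 (0.30) and Sgk1 (0.17), none of them called. The Sgk1 value belongs to a peak of mean signal 21.8, and the strongest promoter peak of Sgk1, of mean signal 474, was at -0.13. The main start-site peak of Nr4a1 was at -0.04 beside these values of Nr4a2, and those of Klf4 and Klf6 at -0.40 and -0.35 beside that of Klf2, differences between genes that were not tested.

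Among 30 genes of the kinases, coactivators and transcription factors that act on immediate-early promoters, all had a promoter peak, and 12 of 38 promoter peaks were called lower and 0 higher by limma (25 and 1 at an unadjusted p under 0.05), with a median of -0.36. Of all 7094 promoter peaks in the top decile, 5167 were lower and 36 higher at the unadjusted p, and 34.4% were called lower. Of the 38 peaks here, 31.6% were called lower, and 26 were in that decile. With the same minimum signal, the lowest were Rps6ka3, a growth factor-activated kinase (-0.81), and Crem, a CREB-family factor (-0.68). Mrtfa, a coactivator of serum response factor (0.27), and Mapk14, a stress-activated kinase (0.14), were among the highest and not called. The stronger promoter peak of Mrtfa, of mean signal 155.5 against 78.6, was at -0.08. The medians of both lists and of the promoter peaks of the 10 genes (-0.38) lay within 0.1 of the median of promoter peaks in the top decile by signal (-0.37).

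**Figure D5:**
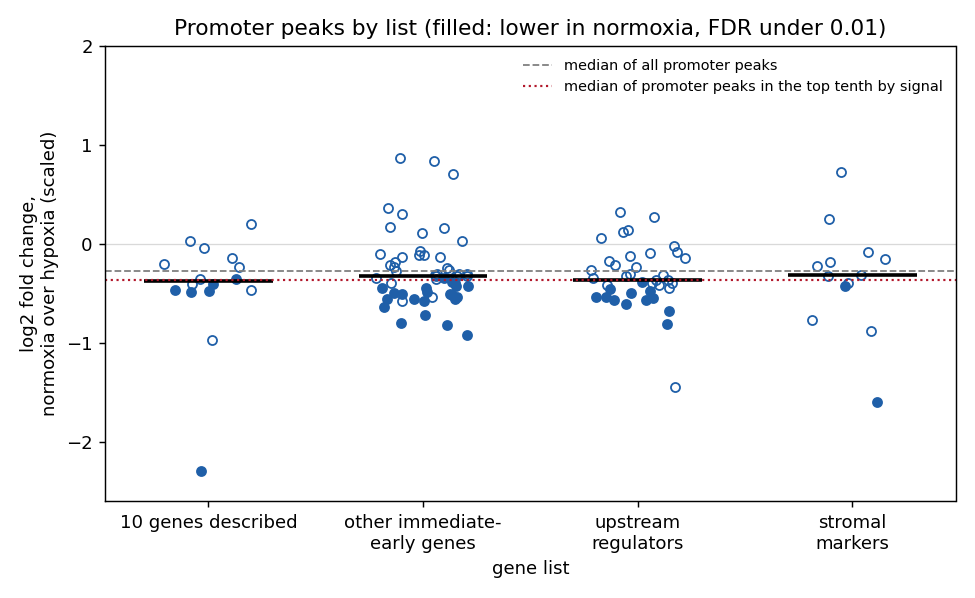
Log2 fold change, normoxia over hypoxia after RLE scaling (vertical axis), of promoter peaks by gene list (horizontal axis). Points are peaks (filled, called lower), black bars medians (-0.38, -0.33, -0.36 and -0.31 from left to right), and the lines give the medians of all promoter peaks (-0.27) and of those in the top decile by signal (-0.37).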

How the data were processed

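ATAC-seq libraries were made from sorted MSCs in hypoxia and normoxia (2 each). According to the methods, the authors aligned reads to mm10 with bowtie2, sorted them with samtools, removed duplicates with Picard, and defined the peaks of both conditions jointly with chromstaR in differential mode. The deposited signal per peak and library is named RPKM by the authors but was not divided by peak width. Within a tolerance of 0.0001, 100% of the values in each library were whole numbers of reads, each worth 10000000 divided by a whole number that was used as the library total. Whether reads overlapping several bins were counted once is not given in the sources used here, so no counting intervals were computed. The number of columns belonging to no sample was 0.

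All 128055 peaks were fitted with limma 3.58.1 in R 4.3.3 (lmFit, eBayes with trend and robust) on log2(signal + 1) after RLE size factors (1.14 and 1.24 in hypoxia, 0.815 and 0.892 in normoxia), two-sided, and p-values were adjusted over all peaks by Benjamini-Hochberg. The pseudocount of 1 understates changes of weak peaks. Because the signal is no deposited read count, limma was the main test and edgeR 4.0.16 on recovered reads an alternative, which called 19 of the 82 peaks lower and 0 higher. The functions were tested on simulated data. The genes and lists were chosen with earlier results of these data known. P-values rest on the spread between these 4 libraries, with the variance of each peak moderated toward a trend over all peaks. Replicate numbers are not given as a pairing and were not used as one in the main fit. Named were every promoter peak, each gene's strongest other peak, every other called peak, and the 3 lowest and 3 highest promoter peaks of mean signal 10 or more in each list, of which some items are not reported here. Start sites and spans came from GENCODE M21, and promoter sequences from RefSeq (GRCm38.p6). Alternatives were other scalings, pseudocounts, filters and thresholds, edgeR, a replicate block, GC correction, each library left out, and other spans.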

Additional observations from a re-analysis of the deposited data

How the results depend on the processing

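The scaling decided most calls. Against 17 lower and 0 higher calls among the 82 peaks after RLE scaling, there were 48 lower as deposited, 8 lower and 1 higher with equal totals, 10 and 2 with quantile, and 11 and 2 with cyclic loess scaling, while the median of all peaks moved from -0.00 to -0.44 as deposited, to 0.26 with equal totals and to -0.14 with GC correction. The lower calls were 32 at an FDR under 0.05, 31 with a replicate block and GC correction, and 0 without the eBayes trend, which called 0 of all 128055 peaks at that threshold; there 36 of the 82 were lower and 1 higher at an unadjusted p under 0.05. The cause of these changes was not tested. Leaving out 1 library gave 0 to 19 lower calls, and the lone library was assumed to vary like the other group. The value was 0 without either hypoxia library, for these peaks and for all peaks, with 32 and 29 lower at an unadjusted p under 0.05, and 18 and 19 without a normoxia library, so the calls rest on having both hypoxia libraries. The number of lower calls was 19 with the replicate block, 17 of them shared with the fit without it. Libraries of the same number did not deviate together (correlation 0.011), and the numbers are not given as a pairing. The correlation cannot show whether libraries of the 2 groups shared a preparation.

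The median log2 fold change of the promoter peaks, -0.38, was -0.86 as deposited, -0.089 with equal totals, -0.044 with quantile, 0.091 with cyclic loess and -0.44 with GC correction, with or without the block, and -0.40 to -0.37 with a library left out. That of the other peaks, -0.49, was -0.93, -0.21 and -0.40 as deposited, with equal totals and with quantile scaling, -0.62 with GC correction, with or without the block, -0.30 with a pseudocount of 5, -0.32 with a mean signal of at least 5, -0.67 within 5 kb, and -0.51 to -0.45 with a library left out. The median difference in promoter share, 0.780 percentage points, was 2.39 with promoters of 2 kb and 2.34 with main transcripts only, a span chosen after seeing the data, which left 15 lower calls, and 0.412 to 1.85 with a library left out.

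Cyclic loess, equal totals or quantile scaling turned the sign of 14 of the 34 named peaks. With equal totals the log2 fold change was 0.12 in the Egr1 body peak, 0.053 in the Egr2 and 0.082 in the Ier3 promoter peak, 0.14 in the wider Klf4 promoter peak, 0.25 in the main Nr4a1 promoter peak, 0.0080 at Ier3 upstream, 0.057 at Klf4 upstream, 0.17 at Nr4a1 upstream and 0.18 in the Dusp1 body peak. With quantile scaling it was 0.19 in the Egr1 body peak, 0.13, 0.020 and 0.16 in the Egr2, Egr3 and Ier3 promoter peaks, 0.18 in the wider Klf4 and 0.33 in the main Nr4a1 promoter peak, 0.073 at Ier3 upstream, 0.26 at Nr4a1 upstream and 0.16 in the Dusp1 body peak. With cyclic loess it was 0.018, 0.16, 0.056, 0.13, 0.22, 0.17, 0.19, 0.056 and 0.46 in promoter peaks of Egr1, Egr2, Egr3, Ier2, Ier3, Klf4 (the wider), Klf6, Dusp1 and Nr4a1, 0.32 and 0.15 in the body peaks of Egr1 and Dusp1, and 0.084 and 0.28 upstream of Ier3 and Nr4a1. As deposited, the wide Egr3 peak was at -0.41, the Dusp1 peak at Ergic1 at -0.27 and the upstream start of Nr4a1 at -0.45. The wide Egr3 peak was at -0.051 with GC correction, with or without the block. With a library left out, the upstream start of Nr4a1 ranged from -0.17 to 0.23, and the Dusp1 body peak reached 0.011 without normoxia library 2. No sign of the 34 named peaks turned with other pseudocounts, the filter, edgeR, other eBayes settings or the block alone. Depth limits the weak peaks most, since 15 of the 26 hypoxia-only peaks had a mean signal under 5.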
